A study of Mus musculus with 9 samples.

Results

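The mouse genome files listed 68 genes named as serpins, and 9 of them were followed here across NRASG12D, NUP98-NSD1 and NUP98-NSD1+NRASG12D bone marrow cultures. They were taken by name as Serpinb1a, Serpinb2, Serpinb6a, Serpinb8, Serpinb9, Serpina3g, Serpinf1, Serpine2 and Serping1, out of 55274 gene identifiers, and 8 of the 9 passed the filter on low values. NRASG12D is a RAS protein locked in its active state by 1 amino acid change, and NUP98-NSD1 is a leukaemia fusion of a nuclear pore protein with an enzyme that methylates histones. RNA was sequenced from 9 libraries, 3 per group. The cells came from the bone marrow of female C57BL6/J mice of 6 to 8 weeks that had received 150 mg/kg of 5-fluorouracil 4 days before harvest. All groups were stimulated for 48 h with human interleukin-6, murine interleukin-3 and murine stem cell factor and then transduced. The retroviral vectors were MSCV-IRES-BFP for NRASG12D and MSCV-IRES-GFP for NUP98-NSD1, and cells with both carried both vectors. Sorted cells were expanded in culture before RNA isolation, no library with an empty vector was analysed here, and the labels do not say whether replicates came from separate mice or transductions. P-values therefore measure the spread between these libraries, which may be technical.

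Serpins are protease inhibitors that offer an exposed loop as bait. When the protease cuts the loop, the serpin changes shape, drags the protease along and traps it in a covalent complex, so that each molecule works a single time. Members of clade B lack a classical secretion signal and act mostly inside cells, where they guard granule-bearing leukocytes against their own proteases. The secreted serpins act outside the cell on clotting, fibrinolysis, complement and the matrix, and a few family members no longer inhibit any protease.

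The cultures differed in cell type markers as well as in their transgenes. The summed FPKM (the fragments of a gene divided by its transcript length in kilobases and by the size of the library) of 8 mast cell markers was 29618 to 32115 in NRASG12D, 26474 to 31355 in NUP98-NSD1 libraries and 732 to 4265 in NUP98-NSD1+NRASG12D cells. Cpa3 is listed at 0 in each NRASG12D library, and since Kit and Fcer1a are high there, this 0 may be a failed estimate. Without Cpa3 the other 7 markers summed to 29618 to 32115 FPKM in NRASG12D, 13361 to 16976 in NUP98-NSD1 libraries and 452 to 2443 in NUP98-NSD1+NRASG12D libraries. The sum of 9 neutrophil lineage markers was 26.6 to 34.4, 1725 to 6122 and 8860 to 19446 FPKM in the same order, with Ltf and Camp listed at 0 in each NRASG12D library. The sum of 8 monocyte and macrophage markers was 40.5 to 53.3, 438 to 866 and 1672 to 4665 FPKM. Of the 7 mast cell markers without Cpa3, 4 fell and 2 rose in NUP98-NSD1 against NRASG12D, beside 9.98% and 42.2% of all tested genes. In NUP98-NSD1+NRASG12D against NRASG12D, 6 fell and 1 rose, beside 14.1% and 24.2%. In NUP98-NSD1+NRASG12D against NUP98-NSD1, 6 fell, beside 6.31%. These sums moved with most of the serpin results below, and their part in them was not tested. In such bulk samples fewer cells of a type and less RNA per cell cannot be told apart. The sum of 3 megakaryocyte markers was 602 to 669, 289 to 379 and 76.0 to 1217 FPKM in the same order of groups. Of these, Itga2b and Gp1ba fell in all 3 comparisons, while Pf4 rose in both comparisons with NRASG12D. Pf4 alone had 1157 FPKM in NUP98-NSD1+NRASG12D replicate 2, the library with the sum of 1217. Other lists were low or few. In the same order, 2 basophil markers summed to 17.4 to 53.4, 693 to 1441 and 22.6 to 437 FPKM. In any library, 3 erythroid markers summed to at most 62.8, 3 endothelial markers to at most 7.09 and 3 B cell markers to at most 0.131 FPKM. Of 5 T and NK cell markers, Nkg7 alone passed the filter and rose in both groups with NUP98-NSD1 against NRASG12D. The depth, estimated from the steps between low FPKM values, was 22500000 to 35400000 fragments per library.

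Promoters are shown for 4 members whose window held a motif of a signal-driven factor. Serpinb6a held such motifs too and is not printed. RefSeq promoters, 250 bases before to 50 bases after a transcript start on GRCm38.p6, were matched for 7 of the 9 members, and Serpinb1a and Serping1 had none. The motifs searched on both strands were TGANTCA for AP-1, TTGCNNAA for C/EBP, TTCNNNGAA for STAT, GAAA, 2 bases of any kind and GAAA again for the interferon response element and GAGGAAG for PU.1, where N is any base. Capitals mark the matches, and none of the matches shown overlaps another.
Serpinb2, chr1:107511173-107511472, plus strand: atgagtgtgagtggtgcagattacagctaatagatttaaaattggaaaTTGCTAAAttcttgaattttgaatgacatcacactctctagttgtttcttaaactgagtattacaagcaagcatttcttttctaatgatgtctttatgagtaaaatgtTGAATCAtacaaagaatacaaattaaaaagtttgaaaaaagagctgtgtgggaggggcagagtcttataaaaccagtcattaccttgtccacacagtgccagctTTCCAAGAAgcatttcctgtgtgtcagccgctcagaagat
Serpinb8, chr1:107589756-107590055, plus strand: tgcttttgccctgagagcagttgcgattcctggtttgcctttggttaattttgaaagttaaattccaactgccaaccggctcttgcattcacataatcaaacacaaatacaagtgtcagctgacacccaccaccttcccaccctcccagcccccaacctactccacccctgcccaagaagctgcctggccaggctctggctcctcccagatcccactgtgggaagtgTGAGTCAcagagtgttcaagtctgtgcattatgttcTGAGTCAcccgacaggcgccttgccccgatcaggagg
Serpinb9, chr13:33004291-33004590, plus strand: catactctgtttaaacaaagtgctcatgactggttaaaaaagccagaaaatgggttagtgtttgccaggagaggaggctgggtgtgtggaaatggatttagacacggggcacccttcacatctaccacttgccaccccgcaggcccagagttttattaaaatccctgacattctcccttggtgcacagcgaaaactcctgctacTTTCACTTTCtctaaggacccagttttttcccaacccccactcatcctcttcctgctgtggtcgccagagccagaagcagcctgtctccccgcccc
Serpina3g, chr12:104235897-104236196, plus strand: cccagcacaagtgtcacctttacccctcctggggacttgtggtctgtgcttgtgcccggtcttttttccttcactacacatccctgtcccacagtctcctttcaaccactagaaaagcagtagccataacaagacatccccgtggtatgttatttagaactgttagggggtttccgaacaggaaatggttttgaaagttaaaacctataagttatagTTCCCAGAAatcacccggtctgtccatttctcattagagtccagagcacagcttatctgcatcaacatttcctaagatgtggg

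Serpinb2 and Serpinb8 both held the AP-1 letters, at 94 bases before the start in Serpinb2 and at 23 bases before and 13 bases after it in Serpinb8, where position 0 is the start. These letters were present in 7.81% of the 32851 promoters of the same length. The Serpinb2 window also held the C/EBP letters, found in 10.8% of promoters, and the STAT letters, found in 8.30%. Serpina3g held the STAT letters at 33 bases before the start. Serpinb9 held the interferon response element letters at 46 bases before the start, and these were present in 3.44% of promoters. In Serpinb6a, which is not printed, the interferon letters and 1 of 2 STAT matches overlapped. The PU.1 letters, present in 13.6% of promoters, were in none of the 7 members' windows. The start used for Serpinb9 lies 1291 bases inside the gene as the files list it and that of Serpina3g 98 bases before it. Those printed for Serpinb2 and Serpinb8 equal the listed starts. Serpinb2 has another RefSeq start 87 bases from the listed one. Its window, which is not printed, held AP-1, STAT and C/EBP letters, the last at 19 bases before that start. Each match describes letters in a window and shows no binding.

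Serpinb1a carried most of the serpin RNA. Serpinb1a (ENSMUSG00000044734.16, GRCm38 chromosome 13, 32842092 to 32851185, minus strand) inhibits neutrophil elastase, proteinase 3, cathepsin G and chymase and is known from the cytoplasm of neutrophils. Its level was 1538, 1596 and 1559 FPKM in the NRASG12D libraries, 809.5, 878 and 1188 FPKM in NUP98-NSD1 and 274, 327 and 313 FPKM in NUP98-NSD1+NRASG12D. The 3 groups did not overlap. By FPKM it ranked 21st to 24th of all genes in NRASG12D libraries, 37th to 75th in NUP98-NSD1 and 254th to 417th in NUP98-NSD1+NRASG12D. The mean was 1564 ± 29.3, 958 ± 201 and 305 ± 27.3 FPKM (SD, n = 3 each). Differences are given from here on as log2 fold changes of FPKM + 1, tested with limma and adjusted by Benjamini-Hochberg over all 13493 tested genes, and this scale makes the change of a low gene look smaller than it is. Serpinb1a fell by 0.73 from NRASG12D to NUP98-NSD1 (SE 0.15, adjusted p = 0.00707), by 2.36 from NRASG12D to NUP98-NSD1+NRASG12D (SE 0.17, adjusted p = 0.000171) and by 1.63 from NUP98-NSD1 to NUP98-NSD1+NRASG12D (SE 0.22, adjusted p = 0.0103). The last of these had an adjusted p of 0.0501 without NUP98-NSD1 replicate 2, at a log2 fold change of -1.69. All 9 tested genes of the neutrophil marker list rose in NUP98-NSD1 and in NUP98-NSD1+NRASG12D against NRASG12D, beside 42.2% and 24.2% of all tested genes. Camp, Ltf, Ngp and S100a9 were under 1 FPKM in every NRASG12D library, and Elane, Mpo, Prtn3 and S100a8 reached it in replicate 2 alone. All but Ctsg thus passed the filter through the groups in which they were high. Their rise was close to fixed by the filter, and nothing is read from this count.

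**Figure D1:**
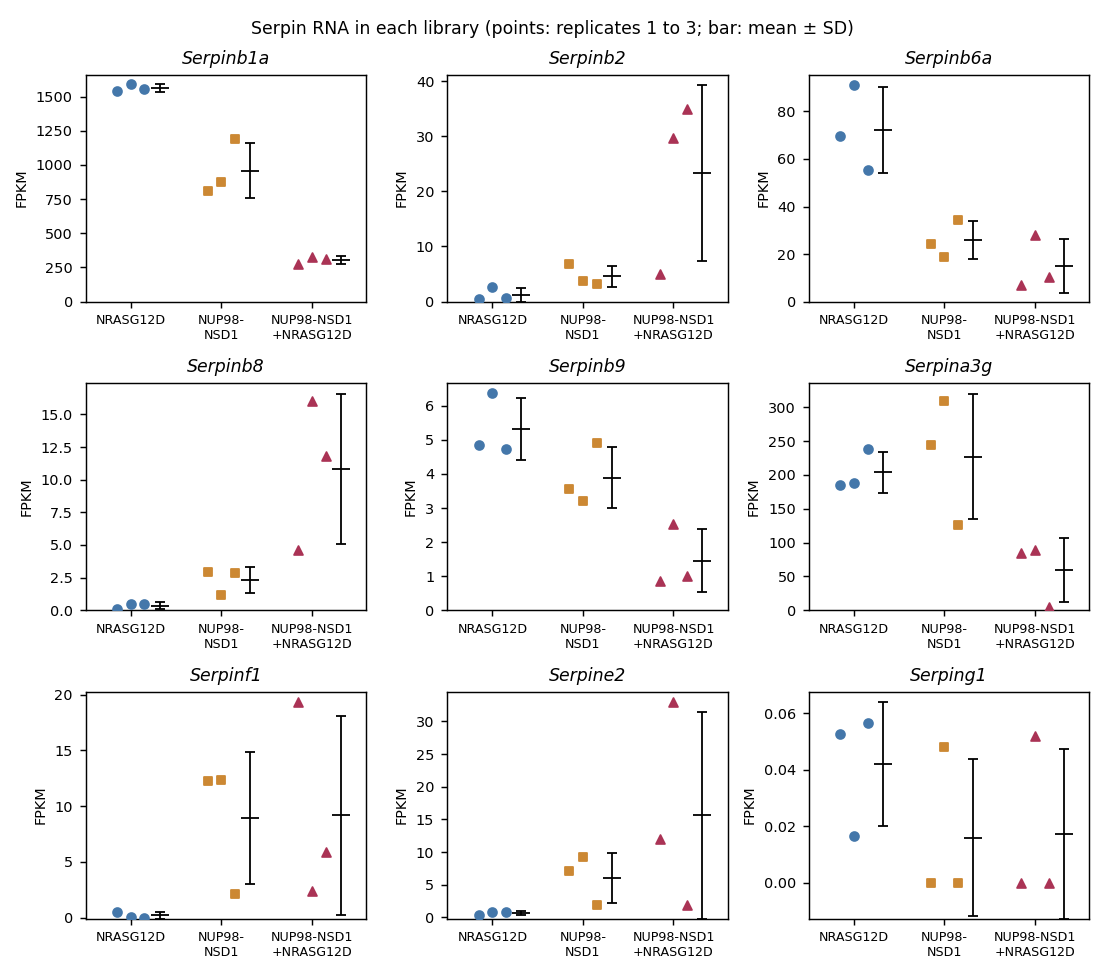
FPKM (vertical axes, linear, a separate scale per gene) of the 9 serpins in each library, with points for replicates 1 to 3 of each group and a bar for the mean and SD. Serpinb1a stepped down from 1564 to 958 to 305 FPKM, Serpinb2 and Serpinb8 were lowest in NRASG12D, and Serping1 stayed under 0.06 FPKM.

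Serpinb1a also set the total of serpin RNA. The summed FPKM of all genes named as serpins was 1818 to 1908 in NRASG12D, 1160 to 1387 in NUP98-NSD1 libraries and 397 to 564 in NUP98-NSD1+NRASG12D libraries, and the groups did not overlap (two-sided exact permutation p = 0.1 for each pair, the smallest that 3 libraries against 3 can give). Serpinb1a made up 82.8% to 84.6% of the sum in NRASG12D, 69.1% to 85.6% in NUP98-NSD1 libraries and 58.0% to 78.6% in NUP98-NSD1+NRASG12D libraries. Serpina3g held 9.87% to 12.7%, 9.13% to 24.4% and 1.34% to 19.7%. The lowest of these was in NUP98-NSD1+NRASG12D replicate 3, where Serpinb1a, Serpinb2, Serpinb8, Serpinb6a, Serpinb10 and Serpinf1 had more FPKM than Serpina3g. The serpins other than Serpinb1a, Serpina3g and Serpinb6a held 1.43% to 1.71% in NRASG12D, 2.75% to 6.97% in NUP98-NSD1 libraries and 14.7% to 21.2% in NUP98-NSD1+NRASG12D libraries. The ranges of this last share did not overlap, whereas those of Serpinb1a and Serpina3g did.

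**Figure D2:**
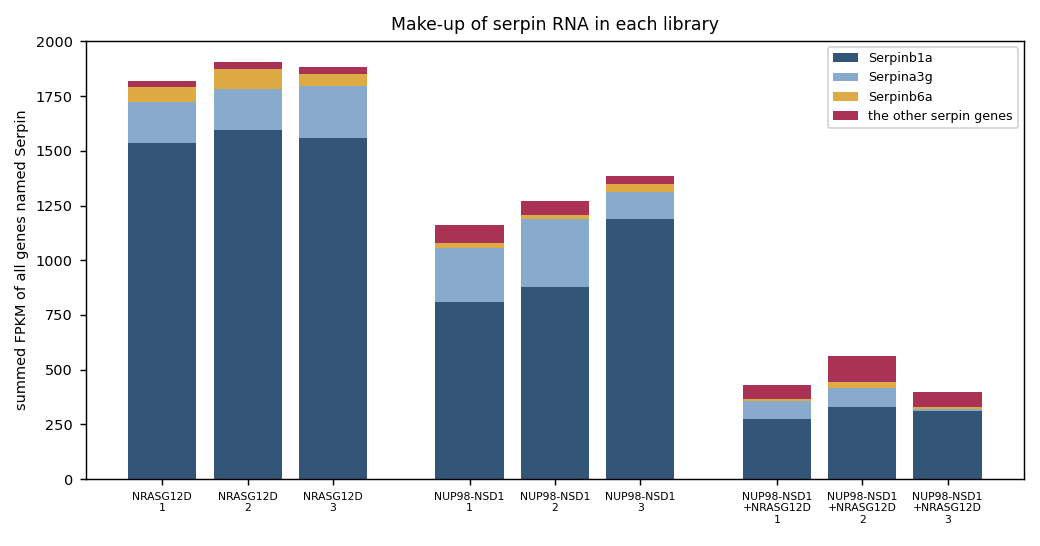
Stacked bars of the summed FPKM (vertical axis, from 0) of all genes named as serpins in each of the 9 libraries, split into Serpinb1a, Serpina3g, Serpinb6a and the other serpin genes. The total fell from 1818 to 1908 in NRASG12D to 397 to 564 in NUP98-NSD1+NRASG12D, and Serpinb1a was the largest part of each bar.

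Of the genes for target proteases of Serpinb1a, those of neutrophils were lowest in NRASG12D cells and the chymase gene Cma1 was highest there. Elane, Prtn3 and Ctsg encode neutrophil elastase, proteinase 3 and cathepsin G of azurophil granules. Their summed level was 26.2 to 27.1 FPKM in NRASG12D, 744 to 2866 in NUP98-NSD1 libraries and 2158 to 7315 in NUP98-NSD1+NRASG12D libraries, and Ctsg alone held most of the NRASG12D sum. All 3 rose in NUP98-NSD1 against NRASG12D, with log2 fold changes of 4.46 for Ctsg to 8.83 for Elane, and in NUP98-NSD1+NRASG12D against NRASG12D, with 4.74 for Ctsg to 10.40 for Elane. In NRASG12D, Elane and Prtn3 reached 1 FPKM in replicate 2 alone, so they passed the filter through the groups in which they were high. None of the 3 passed the threshold between NUP98-NSD1+NRASG12D and NUP98-NSD1, where Elane had an adjusted p of 0.335. Summed protease FPKM over Serpinb1a FPKM was 0.0167 to 0.0176 in NRASG12D, 0.626 to 3.54 in NUP98-NSD1 libraries and 6.60 to 26.7 in NUP98-NSD1+NRASG12D libraries, so these ranges did not overlap. The ratio is one of RNA levels per length and says nothing of protein. Cma1, a chymase gene, fell with Serpinb1a in all 3 comparisons. It had 12715 to 16008 FPKM in NRASG12D, 5267 to 6839 in NUP98-NSD1 libraries and 144 to 697 in NUP98-NSD1+NRASG12D libraries, with log2 fold changes of -1.31, -5.86 and -4.55 and adjusted p-values of 0.00140, 0.000535 and 0.00942. The mast cell protease genes Mcpt1, Mcpt2 and Mcpt4 instead rose in NUP98-NSD1 against NRASG12D, by 2.58, 2.01 and 2.68. Their limma adjusted p-values were 0.00606, 0.00619 and 0.00216. Each fell in NUP98-NSD1+NRASG12D against NUP98-NSD1, so Cma1 does not stand for all mast cell proteases.

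Serpinb6a, which inhibits cathepsin G and trypsin-like proteases inside cells, was also highest in NRASG12D cells. Serpinb6a (ENSMUSG00000060147.15, chromosome 13, 33917918 to 34002794, minus strand) had 69.6, 91.1 and 55.3 FPKM in NRASG12D, 24.3, 18.7 and 34.3 in NUP98-NSD1 and 6.87, 28.1 and 10.2 in NUP98-NSD1+NRASG12D libraries. It lay above all other libraries in NRASG12D, while the NUP98-NSD1 and NUP98-NSD1+NRASG12D groups overlapped. Its log2 fold change was -1.46 in NUP98-NSD1 (SE 0.25, adjusted p = 0.00370) and -2.39 in NUP98-NSD1+NRASG12D (SE 0.47, adjusted p = 0.00792) against NRASG12D, and -0.93 between those with and without NRASG12D (adjusted p = 0.311). Without NUP98-NSD1+NRASG12D replicate 2, which had 28.1 FPKM, that last difference was -1.47 with an adjusted p of 0.0456. Of the 50-base stretches of Serpinb6a transcripts, 25.1% also occur in other genes, mainly Nqo2 (12.5%), 1110046J04Rik (8.52%) and Ripk1 (3.39%) on the opposite strand, and no source used here says that counting used strand. Reads of these genes may therefore be mixed into its value.

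Serpinb9 and its target granzyme B both fell in the cells with both transgenes. Serpinb9 (ENSMUSG00000045827.10, chromosome 13, 33003250 to 33017957, plus strand) is known for protecting cytotoxic lymphocytes and mast cells from granzyme B that leaks out of their own granules. It had 4.85, 6.38 and 4.73 FPKM in NRASG12D, 3.57, 3.20 and 4.91 in NUP98-NSD1 and 0.856, 2.52 and 0.991 in NUP98-NSD1+NRASG12D libraries. The NUP98-NSD1+NRASG12D libraries lay below all others, and the other two groups overlapped. Serpinb9 fell by 1.42 against NRASG12D (SE 0.28, adjusted p = 0.00798). Against NUP98-NSD1 the log2 fold change was -1.04 (SE 0.29, adjusted p = 0.0728), which became -1.33 with an adjusted p of 0.0213 without NUP98-NSD1+NRASG12D replicate 2. In NUP98-NSD1 against NRASG12D it was -0.38 (adjusted p = 0.101), or -0.52 with an adjusted p of 0.0259 without NUP98-NSD1 replicate 3. After median-ratio scaling this difference was -0.63 (adjusted p = 0.0286) and after quantile normalization -0.71 (adjusted p = 0.0174). Gzmb had 3274, 3082 and 3120 FPKM in NRASG12D, 1747, 1905 and 2410 in NUP98-NSD1 and 55.3, 328 and 17.0 in NUP98-NSD1+NRASG12D libraries. Its 3 groups did not overlap. Its log2 fold changes in the 3 comparisons were -0.66, -5.51 and -4.85, with adjusted p-values of 0.00767, 0.00433 and 0.0281. Among the NUP98-NSD1+NRASG12D libraries, replicate 2 was highest for both genes. Of the other granzymes listed, Gzma, Gzmc, Gzmk and Gzmm did not pass the filter. The T cell markers Cd3e, Cd3g and Cd8a were under 0.2 FPKM in every library.

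**Figure D3:**
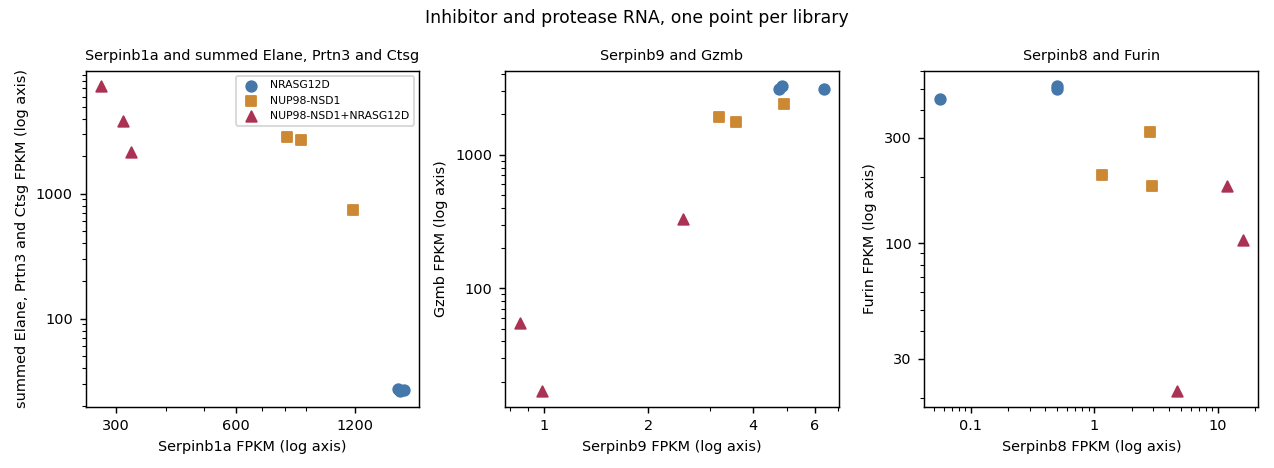
FPKM of Serpinb1a against summed Elane, Prtn3 and Ctsg (left), Serpinb9 against Gzmb (middle) and Serpinb8 against Furin (right), 1 point per library, both axes logarithmic. NRASG12D libraries sit at 1538 to 1596 FPKM of Serpinb1a with under 30 FPKM of the 3 neutrophil proteases, and NUP98-NSD1+NRASG12D libraries hold the least Serpinb9 and the least Gzmb.

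Serpina3g had the largest spread within a group of the 9 genes by the SD of log2(FPKM + 1). Serpina3g (ENSMUSG00000041481.16, chromosome 12, 104236245 to 104241939, plus strand) is known to inhibit lysosomal cathepsins that reach the cytosol and to be induced by interferon. Its level was 184, 188 and 239 FPKM in NRASG12D, 245, 310 and 127 in NUP98-NSD1 and 84.4, 88.8 and 5.34 in NUP98-NSD1+NRASG12D libraries. The NUP98-NSD1+NRASG12D libraries lay below all others without overlap, but their SD on that scale was 2.19. The highest over the lowest FPKM in that group was 16.6 for Serpina3g and 17.0 for Serpine2. Against NRASG12D the log2 fold change was -2.48 (SE 0.97, adjusted p = 0.0818) and against NUP98-NSD1 -2.55 (SE 1.01, adjusted p = 0.180). Without NUP98-NSD1+NRASG12D replicate 3, which had 5.34 FPKM, the first was -1.22 with an adjusted p of 0.00620. Under array weights, which give scattered libraries less say, both differences were called, at -3.82 (adjusted p = 0.00522) and -4.18 (adjusted p = 0.0114). NUP98-NSD1 and NRASG12D differed by 0.07 (adjusted p = 0.860), a value whose sign depended on the scaling and reached -0.24 after median-ratio scaling. The cathepsins Ctsb, Ctsl and Ctss rose in both groups with NUP98-NSD1 against NRASG12D, and Ctsb had 283, 317 and 259 FPKM in NRASG12D and 714, 5327 and 1683 in NUP98-NSD1+NRASG12D libraries. Of 10 interferon-stimulated genes, 7 rose and none fell in NUP98-NSD1 against NRASG12D, and 10 rose in NUP98-NSD1+NRASG12D against NRASG12D. Of all tested genes, 42.2% rose in the first and 24.2% in the second of these comparisons. Cxcl10, Ifit1, Ifit3 and Mx1 were under 1 FPKM in every NRASG12D library. These genes passed the filter through the groups in which they were high, so their rise was close to fixed. Serpina3g was not called in either comparison, and a part of interferon in its level was not tested.

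Neighbours of Serpina3g on chromosome 12 had similar relative levels in all groups. Serpina3h stood at 1.03% to 1.41%, Serpina3i at 1.51% to 2.03% and Serpina3e-ps at 0.441% to 0.845% of the Serpina3g FPKM across the 9 libraries. Serpina3h fell by 1.23 and Serpina3i by 1.28 in NUP98-NSD1+NRASG12D against NRASG12D, with adjusted p-values of 0.0140 and 0.0341. Of the 50-base stretches of Serpina3g, 8.89% occur in Serpina3h, 6.84% in Serpina3i, 6.29% in Serpina3f and 4.74% in Serpina3e-ps, so the low values of these paralogs may hold reads of Serpina3g and are uncertain. Serpina3f stood apart, at 1.76% to 1.84% of Serpina3g in NRASG12D and 3.84% to 4.72% in NUP98-NSD1+NRASG12D libraries. It was not called in any comparison.

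Serpinb2 and Serpinb8 were the clade B members that rose. Serpinb2 (ENSMUSG00000062345.10, chromosome 1, 107511423 to 107535478, plus strand), a plasminogen activator inhibitor, is known for its strong induction in activated monocytes and macrophages. It had 0.430, 2.66 and 0.631 FPKM in NRASG12D, 6.81, 3.76 and 3.24 in NUP98-NSD1 and 5.09, 29.7 and 35.0 in NUP98-NSD1+NRASG12D libraries. NRASG12D lay below all other libraries, and the other two groups overlapped through NUP98-NSD1+NRASG12D replicate 1. It rose by 1.40 in NUP98-NSD1 (SE 0.39, adjusted p = 0.0212) and by 3.21 in NUP98-NSD1+NRASG12D (SE 0.71, adjusted p = 0.0129) against NRASG12D. Between NUP98-NSD1+NRASG12D and NUP98-NSD1 the log2 fold change was 1.81 (SE 0.67, adjusted p = 0.154), and 2.62 with an adjusted p of 0.00872 without NUP98-NSD1+NRASG12D replicate 1. The rise in NUP98-NSD1 was close to the threshold, since the adjusted p was 0.0637 without NRASG12D replicate 1, 0.0764 without NRASG12D replicate 3, 0.0690 without NUP98-NSD1 replicate 1 and 0.0506 without NUP98-NSD1 replicate 2. The rise in NUP98-NSD1+NRASG12D had an adjusted p of 0.0505 without NRASG12D replicate 3. Serpinb10, whose transcripts share 10.4% of the Serpinb2 stretches on the same strand, rose in both comparisons, so part of either value may belong to the other.

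Genes of the plasminogen activator system, on which Serpinb2 acts, went different ways. Plau, which encodes urokinase, was 2.29 to 4.00 FPKM in NRASG12D, 1.36 to 1.54 in NUP98-NSD1 libraries and 0.256 to 2.50 in NUP98-NSD1+NRASG12D libraries, and it fell by 0.82 in NUP98-NSD1 against NRASG12D (adjusted p = 0.00904). Plaur, the urokinase receptor, rose by 1.77 and 3.56 against NRASG12D in NUP98-NSD1 and NUP98-NSD1+NRASG12D (adjusted p = 0.00158 and 0.00292). Lrp1, a receptor that clears complexes of serpins with proteases, had under 0.22 FPKM in NRASG12D, 2.38 to 2.62 in NUP98-NSD1 libraries and 6.62 to 23.6 in NUP98-NSD1+NRASG12D libraries and rose in all 3 comparisons. The tissue-type activator gene Plat and the plasminogen gene Plg did not pass the filter.

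Serpinb8 (ENSMUSG00000026315.13, chromosome 1, 107590006 to 107610484, plus strand) inhibits furin, the protease that matures many secreted proteins. Its level was 0.0558, 0.498 and 0.502 FPKM in NRASG12D, 2.94, 1.14 and 2.82 in NUP98-NSD1 and 4.64, 16.0 and 11.8 in NUP98-NSD1+NRASG12D libraries, and the 3 groups did not overlap. It rose by 1.25 (SE 0.27, adjusted p = 0.00855) and 3.01 (SE 0.41, adjusted p = 0.00175) against NRASG12D. Between NUP98-NSD1+NRASG12D and NUP98-NSD1 the log2 fold change was 1.75 (SE 0.45, adjusted p = 0.0593), and 2.22 with an adjusted p of 0.0141 without NUP98-NSD1+NRASG12D replicate 1. Furin had 447 to 514 FPKM in NRASG12D, 182 to 317 in NUP98-NSD1 libraries and 21.4 to 182 in NUP98-NSD1+NRASG12D libraries. It fell by 1.09 and 2.69 against NRASG12D, with adjusted p-values of 0.00473 and 0.0230. Between NUP98-NSD1+NRASG12D and NUP98-NSD1 its log2 fold change was -1.60 with an adjusted p of 0.236. Serpinb8 reached 1 FPKM in 0 NRASG12D libraries and passed the filter through the groups in which it was high. Its rise against NRASG12D was close to fixed by the filter, so nothing is read from the opposite directions. The low point for both Serpinb8 and Furin in NUP98-NSD1+NRASG12D cells was replicate 1.

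Serpinf1 and Serpine2, which encode secreted serpins, were under 1 FPKM in every NRASG12D library. Serpinf1 (ENSMUSG00000000753.15, chromosome 11, 75409769 to 75422701, minus strand) encodes pigment epithelium-derived factor, a serpin without inhibitory activity that is known to block vessel growth. It had 0.516, 0.0369 and 0 FPKM in NRASG12D, 12.3, 12.4 and 2.10 in NUP98-NSD1 and 19.3, 2.42 and 5.86 in NUP98-NSD1+NRASG12D libraries. A level of 3 fragments corresponds to 0.0463 to 0.0728 FPKM for this gene, so NRASG12D replicates 2 and 3 were under that floor, which covers counting error only. Serpinf1 rose by 2.82 (SE 0.56, adjusted p = 0.00607) and 2.75 (SE 0.60, adjusted p = 0.0122) against NRASG12D. Between the groups with NUP98-NSD1 it differed by -0.07 (SE 0.79, adjusted p = 0.979). Its receptor gene Pnpla2 had 35.6 to 62.7 FPKM over all libraries and was not called in any comparison.

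Serpine2 (ENSMUSG00000026249.10, chromosome 1, 79794197 to 79861180, minus strand) encodes protease nexin, which inhibits thrombin, urokinase and plasmin at the cell surface. It had 0.394, 0.798 and 0.812 FPKM in NRASG12D, 7.07, 9.27 and 1.86 in NUP98-NSD1 and 11.96, 32.9 and 1.94 in NUP98-NSD1+NRASG12D libraries. Every NRASG12D library was below 1 FPKM and every other library above it, while the other two groups overlapped. Serpine2 rose by 1.90 (SE 0.45, adjusted p = 0.0112) in NUP98-NSD1 and by 2.72 (SE 0.80, adjusted p = 0.0344) in NUP98-NSD1+NRASG12D against NRASG12D. The second call was lost without NRASG12D replicate 1 (adjusted p = 0.0979), replicate 2 (0.0837) or replicate 3 (0.0897) and without NUP98-NSD1+NRASG12D replicate 1 (0.0867), and it was at 0.0529 under array weights. Between the groups with NUP98-NSD1 the log2 fold change was 0.81 (adjusted p = 0.680). The thrombin gene F2 did not pass the filter, whereas the thrombin receptor F2r had log2 fold changes of -1.10, -5.05 and -3.95 in the 3 comparisons and was called in each. Stromal cells, a known source of secreted serpins, were represented by Col1a1, Col1a2, Col3a1 and Dcn at under 0.75 FPKM in every library. Another stromal marker, Pdgfrb, had 0.0529 to 0.0727 FPKM in NRASG12D, 0.922 to 4.40 in NUP98-NSD1 libraries and 0.231 to 2.55 in NUP98-NSD1+NRASG12D libraries and rose in NUP98-NSD1 against NRASG12D.

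Serping1, the inhibitor of the first complement component and of contact proteases, was not detectable at this depth in any of the 9 libraries. Serping1 (ENSMUSG00000023224.12, chromosome 2, 84765387 to 84775444, minus strand) had 0.0527, 0.0167 and 0.0565 FPKM in NRASG12D, 0, 0.0480 and 0 in NUP98-NSD1 and 0, 0.0520 and 0 in NUP98-NSD1+NRASG12D libraries, each under the level of 3 fragments at the depth of its own library, which was 0.0479 to 0.0754 FPKM. It did not enter the test. None of 8 genes for proteases of the classical, lectin and contact pathways passed the filter either, but not all were absent. C1ra had at most 0.00954 FPKM in NRASG12D, 0.319 to 0.396 in NUP98-NSD1 libraries and 0.519, 3.96 and 0.748 in NUP98-NSD1+NRASG12D libraries. C1rb had 1.56 FPKM in NUP98-NSD1+NRASG12D replicate 2, and the others had at most 0.417 FPKM in any library.

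**Figure D4:**
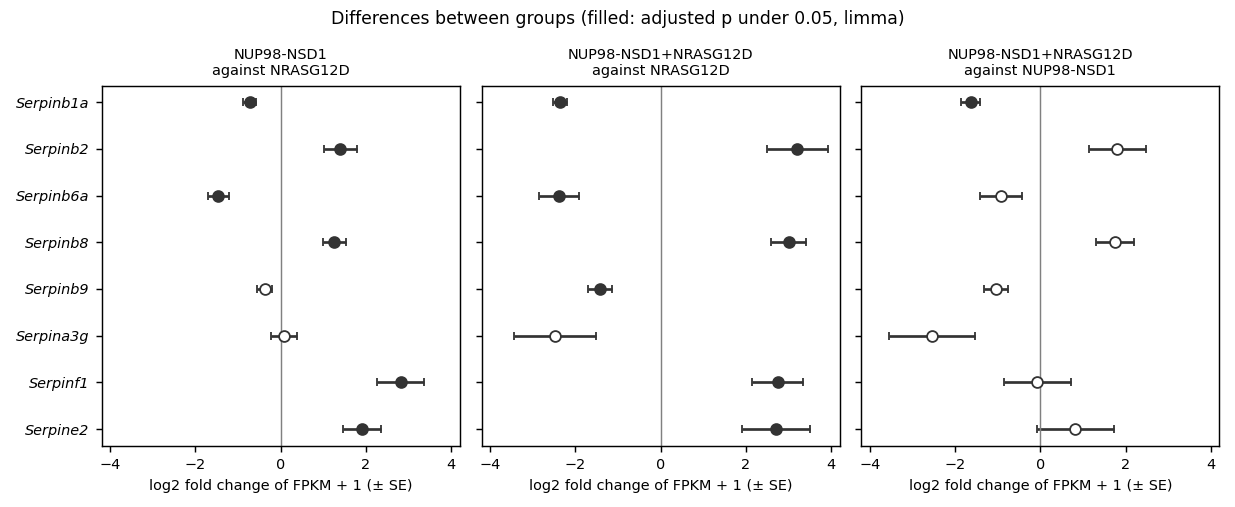
Log2 fold change of FPKM + 1 with its SE (horizontal axis) for the 8 tested members in the 3 comparisons, filled where limma's adjusted p was under 0.05. Serpinb2, Serpinb8, Serpinf1 and Serpine2 lie right of 0 and Serpinb1a and Serpinb6a left of it in both comparisons with NRASG12D, and only Serpinb1a is filled in the third panel.

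Counted over the 8 tested members, 4 rose and 2 fell in NUP98-NSD1 against NRASG12D, where 42.2% of all tested genes rose and 9.98% fell. In NUP98-NSD1+NRASG12D against NRASG12D, 4 rose and 3 fell, against 24.2% and 14.1% of all tested genes. Without NRASG12D replicate 3, 2 members rose in that comparison. In NUP98-NSD1+NRASG12D against NUP98-NSD1 0 rose and 1 fell by limma, against 2.30% and 6.31%, and 2 were higher and 3 lower at an unadjusted p under 0.05. Serpinb8, Serpinf1 and Serpine2 reached 1 FPKM in 0 and Serpinb2 in 1 of the NRASG12D libraries, and Serpinb9 reached it in 1 of the NUP98-NSD1+NRASG12D libraries. They passed the filter on low values through the groups in which they were high, so counts and medians over the tested members support nothing about serpins as a group. Leaving out NUP98-NSD1+NRASG12D replicate 1 gave 2 members that rose in this last comparison, leaving out its replicate 2 gave 3 that fell, and leaving out NUP98-NSD1 replicate 2 gave 0 that fell. The median log2 fold change of the members was 0.66, 0.65 and -0.50 in the 3 comparisons, beside 0.27, 0.23 and -0.06 over all tested genes. Groups did not overlap for 4 higher and 2 lower members in the first comparison (50.7% and 13.5% of all tested genes), 4 and 4 in the second (38.7% and 19.9%) and 1 and 3 in the third (11.6% and 19.8%). The 4 rises of the first comparison had adjusted p-values of 0.0522 to 0.121 without the filter on low values, and Serpinf1 alone was called higher with a single fit on all 9 libraries. Serpinb2 and Serpinb8 also lost this call after quantile normalization (adjusted p = 0.0521 and 0.0869). In the second comparison Serpinb2, Serpinb6a, Serpinf1 and Serpine2 lost their call without the filter (adjusted p = 0.0610 to 0.154), as did Serpinb1a in the third (0.0612). No called member changed sign under another scaling, although median-ratio scaling moved the median of all tested genes from 0.27 to 0.0094 in the first comparison and from 0.23 to 0.033 in the second. The 3 comparisons share libraries with each other and are not independent.

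The clade B serpins lie in clusters on chromosomes 1 and 13. There are 12 Serpinb genes in 749 kb of chromosome 1 and 16 on chromosome 13 in the files. On chromosome 1 the tested genes were Serpinb2, Serpinb10 and Serpinb8, next to each other at 1 end of the cluster, and the other 9 genes did not pass the filter on low values. In NRASG12D, Serpinb2 reached 1 FPKM in 1 library and Serpinb10 and Serpinb8 in 0, so these genes passed through the groups in which they were high and a rise against NRASG12D was close to fixed by the filter. Nothing is read from their shared direction. Serpinb10, which is expressed in haematopoietic cells, had 0 to 0.0259 FPKM in NRASG12D, 3.73 to 7.63 in NUP98-NSD1 libraries and 9.61 to 12.8 in NUP98-NSD1+NRASG12D libraries, with log2 fold changes of 2.58 and 3.52 against NRASG12D (adjusted p = 0.000468 and 5.45e-05). On chromosome 13 the 7 tested genes gave 3 falls and 1 rise in NUP98-NSD1 against NRASG12D, where 9.98% of all tested genes fell and 42.2% rose. They gave 4 falls and 1 rise in NUP98-NSD1+NRASG12D against NRASG12D, beside 14.1% and 24.2%. In NUP98-NSD1+NRASG12D against NUP98-NSD1, 1 fell and 0 rose, beside 6.31% and 2.30%. A shared direction of the cluster was not tested. Serpinb1b, a close relative of Serpinb1a with 0.204% to 0.400% of its FPKM, fell by 0.63 in NUP98-NSD1 and 1.24 in NUP98-NSD1+NRASG12D against NRASG12D. The gene that rose was Serpinb9g, which also passed the filter without any NRASG12D library, at 0 to 0.0152 FPKM in NRASG12D and 1.26 to 10.9 in NUP98-NSD1 libraries, and 54.8% of its stretches occur in other genes, so its value is uncertain. Serpinb1c and Serpinb6b were not called in any comparison.

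**Figure D5:**
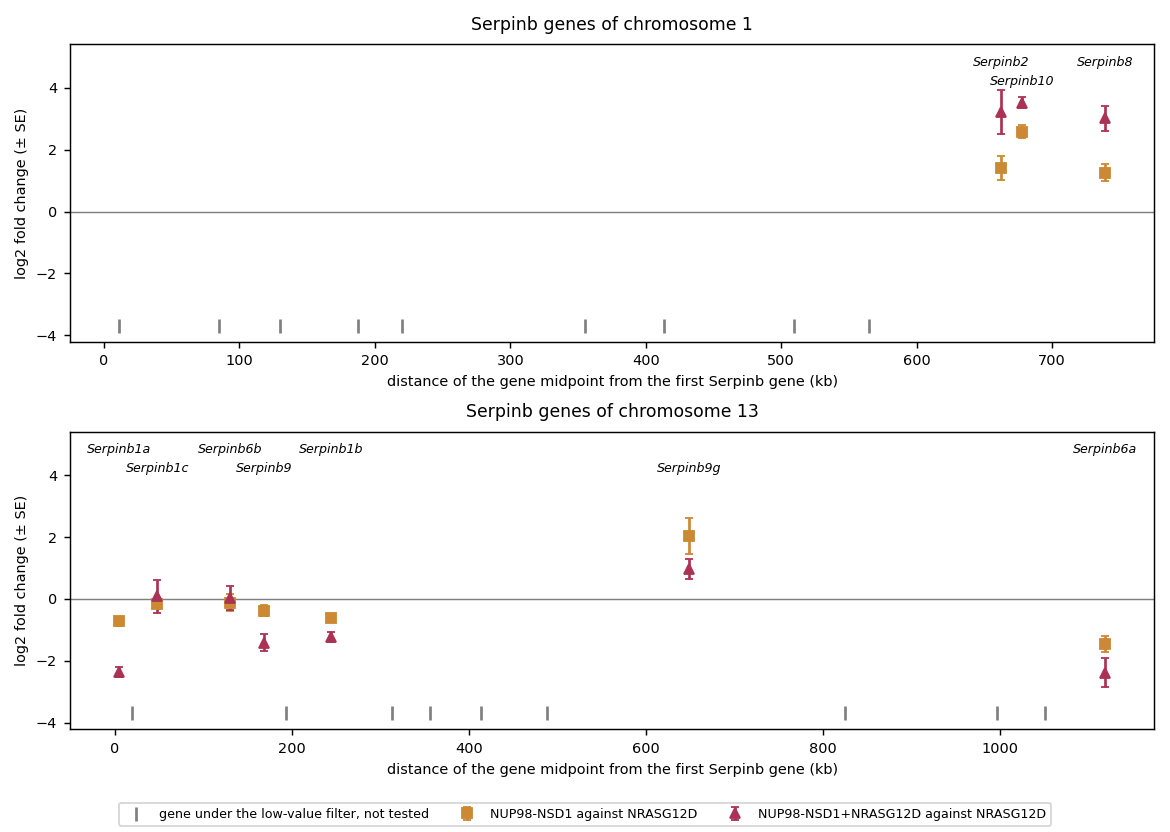
Log2 fold change of FPKM + 1 with its SE (vertical axis) of tested Serpinb genes against NRASG12D, by distance of the gene midpoint from the first Serpinb gene in kb, for chromosome 1 (top) and chromosome 13 (bottom). Grey ticks mark genes that were not tested. The 3 tested genes of chromosome 1, which passed the filter through the groups where they were high, lie above 0, and on chromosome 13 Serpinb9g alone was called higher.

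Over the 59 serpin genes outside the 9, 10 passed the filter. Of these, 2 rose and 1 fell in NUP98-NSD1 against NRASG12D, 2 rose and 5 fell in NUP98-NSD1+NRASG12D against NRASG12D, and 1 fell in NUP98-NSD1+NRASG12D against NUP98-NSD1. Over all tested genes 42.2% rose and 9.98% fell in the first, 24.2% and 14.1% in the second and 2.30% and 6.31% in the third comparison. Serpinb10 and Serpinb9g, which rose, reached 1 FPKM in 0 NRASG12D libraries. Serpina3e-ps, Serpina3h and Serpini1, which fell, reached it in 0 NUP98-NSD1+NRASG12D libraries. They passed the filter through the groups in which they were high, so these counts support nothing about serpins as a group. Serpina3e-ps and Serpina3h are annotated as pseudogenes and Serpinb10 as a polymorphic pseudogene. The gene that fell in the third comparison was Serpini1, which encodes neuroserpin, at 0.264 to 0.378 FPKM in NUP98-NSD1+NRASG12D and 1.00 to 1.18 in NUP98-NSD1 libraries (log2 fold change -0.64, adjusted p = 0.0409). This last count was 0 without any 1 of the 3 NUP98-NSD1 libraries and without NUP98-NSD1+NRASG12D replicate 2 or 3. Without any 1 of the 3 NRASG12D libraries, 1 of these genes rose in each of the first 2 comparisons and 2 or 3 fell in the second, and 1 rose in the second without NUP98-NSD1+NRASG12D replicate 1. The 39 listed genes for target proteases, receptors and partners had 24 tested members. Of these 14 rose and 7 fell in NUP98-NSD1 against NRASG12D, 9 rose and 9 fell in NUP98-NSD1+NRASG12D against NRASG12D, and 1 rose and 8 fell in NUP98-NSD1+NRASG12D against NUP98-NSD1. In the last comparison 4 or 5 fell and 0 rose without any 1 of the 3 NUP98-NSD1 libraries, 5 fell and 0 rose without NUP98-NSD1+NRASG12D replicate 3, and 5 or 2 rose without its replicate 1 or 2. Their median log2 fold changes were 1.54, -0.30 and -1.11, beside 0.27, 0.23 and -0.06 over all tested genes, and the shares of all genes given above apply here too. Among them, the mast cell and basophil proteases gave 6 of the 8 falls in the last comparison, Cma1 included.

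The genes whose pattern over the 9 libraries was closest to a member were found by the root mean square difference of log2(FPKM + 1) after centring each gene. For Serpinb1a these were Hs6st1 (0.096), a heparan sulfate sulfotransferase, and Stat4 (0.106), where Serpinb1a itself varied by 1.00 about its mean. Serpinb9 was closest to Sgcb (0.119) and Mypopos (0.121), and Serpinb6a to Aldh1l1 (0.147). Serpinb2 was closest to Penk (0.30) and Ceacam1 (0.341), and Serpinb8 to Crybg1 (0.279) and Trim30d (0.288). The nearest genes of Serpine2 (Prg3, 0.386), Serpina3g (Mycn, 0.444) and Serpinf1 (Rpph1, 0.464) were less close. These distances are descriptions over 9 libraries of 3 groups.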

How the data were processed

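RNA-seq values of 9 libraries were analysed, 3 per group, with groups taken from the sample labels. Paired-end reads (50 bp) were aligned by the authors with STAR 2.7.2a, and they deposited FPKM per gene from Cufflinks 2.2.1 on GRCm38.p6, with GENCODE annotation. FPKM hold no counts, so the count test named in the methods (DESeq2) was not run, and depth was estimated from the steps between low values. Values of an identifier listed more than once were summed. Genes that reached 1 FPKM in 3 or more libraries were tested on log2(FPKM + 1) with limma 3.58.1 in R 4.3.3 (lmFit, eBayes with trend), each pair of groups on its 6 libraries, and p-values were adjusted by Benjamini-Hochberg over the 13493 genes (threshold 0.05). For a single value the two-sided exact permutation test was used. The named genes were the 9 members, other genes named as serpins, fixed lists of target proteases, partners and cell type markers, and the nearest genes by pattern. Members and lists were chosen with earlier results of these data known. The floor was 3 fragments. Shared sequence was measured as 50-base stretches found in GENCODE transcripts of other genes. Promoters came from RefSeq. The test was tried on simulated data with 200 changed genes among 13493. There it found 72.0%, 36.0% and 30.0% of log2 changes of 1 in the 3 comparisons and 93.0%, 77.0% and 79.0% of changes of 2. Of its calls 6.32%, 5.33% and 4.86% were false. The real comparisons called 7036, 5173 and 1162 genes, so these rates need not hold for them. Alternatives were another pseudocount, no filter, other scalings and models, a replicate block and leaving out each library. Python 3.11.15 with pandas 2.3.3, numpy 2.4.6 and matplotlib 3.10.9 made the tables and plots.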

Additional observations from a re-analysis of the deposited data

How the results depend on the processing

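Of 336 member values under an alternative, 282 kept their direction and their side of the threshold, 25 lost their call, 18 gained one and 11 changed sign. The sign changed only for differences that had no call. Serpina3g in NUP98-NSD1 against NRASG12D went from 0.07 to -0.24 with median-ratio scaling, -0.21 with quantile normalization, -0.10 when each library was rescaled to the same sum and from -0.20 to 0.44 with a library left out. Serpinf1 in NUP98-NSD1+NRASG12D against NUP98-NSD1 ranged from -0.77 to 0.53 with a library left out, and Serpine2 from -0.0050 to 1.76, with -0.56 under array weights.

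In NUP98-NSD1 against NRASG12D, 7036 genes were called, 3065 with a single fit on all 9 libraries and 4736 to 7948 with a library left out. The 4 members that rose became 0 without the filter on low values, 2 with quantile normalization and 1 with the single fit, and 3 to 4 with a library left out. Of the other serpin genes, 1 rose with quantile normalization and 1 to 3 with a library left out, while 2 fell with median-ratio scaling and 3 with quantile normalization. With the single fit, 0 of the protease and partner genes fell.

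In NUP98-NSD1+NRASG12D against NRASG12D, 5173 genes were called, and 2941 to 6327 with a library left out. Without the filter, 1 member rose, 2 other serpin genes fell and 5 protease and partner genes fell. With a library left out, 2 to 4 members rose, 1 to 2 other serpin genes rose and 2 to 6 fell. Of the other serpin genes 1 rose with median-ratio scaling and 1 with the single fit.

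In NUP98-NSD1+NRASG12D against NUP98-NSD1, 1162 genes were called, 169 without the filter, 2251 with the single fit, 3500 with array weights and 283 to 2509 with a library left out. Members that rose numbered 1 with the single fit, 2 with array weights and 0 to 2 with a library left out. Members that fell numbered 0 without the filter, 2 with the single fit, 3 with array weights and 0 to 3 with a library left out. Of the other serpin genes 1 rose with the single fit, and the number that fell was 0 with a pseudocount of 0.1, without the filter and with quantile normalization, 4 with the single fit, 6 with array weights, and 0 to 1 with a library left out. Protease and partner genes that rose numbered 0 without the filter and with median-ratio scaling, 5 with the single fit and with array weights and 0 to 5 with a library left out, and those that fell numbered 2 without the filter and 4 to 9 with a library left out. For all these changes the cause was not tested.

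The share of calls that were higher depended on the scaling. It was 80.9% in NUP98-NSD1 against NRASG12D (52.5% with median-ratio scaling, 43.2% with quantile normalization), 63.1% in NUP98-NSD1+NRASG12D against NRASG12D (51.8% and 41.3%) and 26.8% in NUP98-NSD1+NRASG12D against NUP98-NSD1 (31.0% and 36.7%). The labels link same-numbered libraries by their number alone. The mean correlation of their deviations from the group means was -0.0277, 0.0160 and 0.00200. In NUP98-NSD1+NRASG12D against NUP98-NSD1 it was 0.16, -0.177 and 0.023 for replicates 1, 2 and 3. With 3 libraries per group these values cannot show whether such libraries shared a mouse or a batch. With the replicate number as a block, 6864, 4531 and 801 genes were called, the calls of the 8 members did not change, and 3 other serpin genes fell in the third comparison in place of 1. FPKM give no counts, so the floor of 3 fragments limits Serping1 in every group and Serpinf1 in NRASG12D cells.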
